A study of Rattus norvegicus with 9 samples.

Results

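The collagen genes were taken as every gene of the array whose symbol reads Col, a number, a and a number, and whose probe set carried that symbol alone. A gene with several probe sets was represented by the one chosen by its highest mean over the 9 arrays, so that mean is not a result. The rule found 41 collagen genes on 58 probe sets, out of 14217 named genes on the array. Of 45 collagen chains listed by class, Col4a3, Col6a4, Col21a1 and Col28a1 were not analysed here. The family was picked for description with results of these data known, so its counts are given beside those of all genes.

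Collagens are secreted or membrane-bound proteins whose alpha chains wind into helical trimers held together by a glycine at regular steps. The fibrillar types build the fibres of connective tissue, type IV forms the sheet of every basement membrane, and the FACIT types sit on fibre surfaces. In the brain, fibrillar type I and III collagen belongs mainly to the meninges and the sheaths of larger vessels, while type IV lines the capillaries. Neurons and glia make smaller amounts of others, among them Col25a1, a collagen that spans the neuronal membrane and whose shed part was found in amyloid plaques.

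The samples were thalamus RNA from male Wistar rats, 3 weeks old when the experiment began and labelled 5 weeks old. All rats first ate powdered feed for 2 days. The chow group (4 arrays) then received solid feed for 8 days and the powder group (5 arrays) stayed on powdered feed, a comparison of a diet that has to be chewed with one that does not. The labels count 10 rats without tying each sample to an animal, so p-values reflect only how these samples varied, which may be technical in part. Precision is limited by the small number of arrays.

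The deposited log2 values fell into a pair of classes that matter for every collagen. Most genes hardly moved at all over the 9 arrays: 11803 of 14217 spanned less than 0.01 log2 units, here called compressed, and for the remaining 2414 the median span was 0.41. Among the collagens, 11 were uncompressed and 30 compressed. Col4a1 was the uncompressed collagen nearest to that limit, with a span of 0.0127, and Col6a2 the compressed one nearest to it, with a span of 0.00112. A compressed gene can pass a test with a difference too small to express as a fold, so sizes are given for the uncompressed collagens and only calls for the others.

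**Figure D1:**
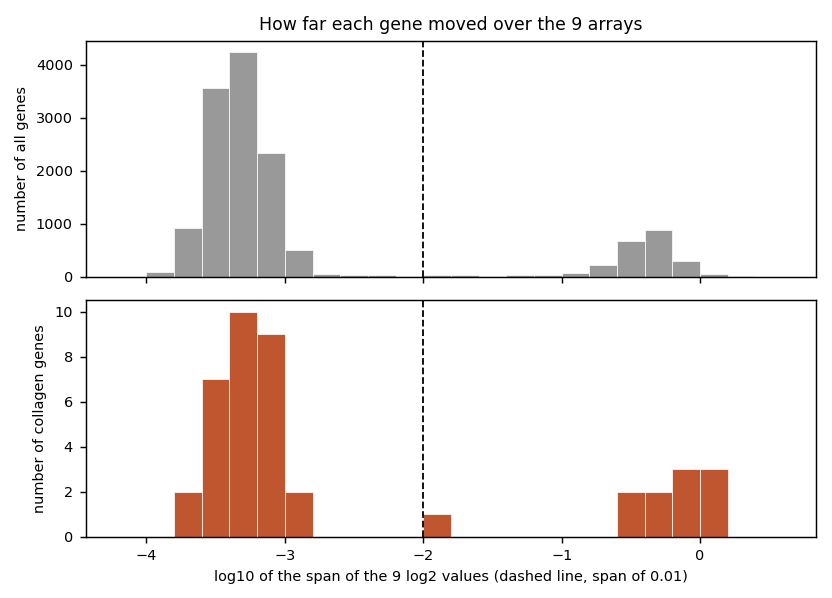
Number of genes (top) and of collagen genes (bottom) by the span of their 9 log2 values, on a log10 axis, with the limit of 0.01 as a dashed line. The 30 compressed collagens sit left of the line and the 11 uncompressed ones right of it, with Col4a1 just beyond it.

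Chow 1 and powder 1 stood apart in tissue markers. Of 11 thalamic neuron markers, 10 were uncompressed, and 9 of those 10 had their lowest value on chow 1. The share of all uncompressed genes lowest on chow 1 was not counted. Genes outside this list were also lowest there, among them Col11a2, Col3a1, Lox, Itgb1 and Pecam1. Chow 1 was the highest of all arrays for 18.6% of uncompressed genes. The summed level of the list, in linear units of the deposited scale, was 12053 on chow 1 and up to 17836 on the other chow arrays, against 16587 to 17968 on the powder arrays. Of 15 markers of leptomeningeal and perivascular fibroblasts, the cells that make type I and III collagen around the brain, 10 were uncompressed and 9 of those were highest on powder 1. No array had a zero for any marker, since this scale has none. Values without these arrays or chow 2 are given where they bear on a collagen.

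Among the 41 collagens, 17 passed the test of chow against powder (limma, Benjamini-Hochberg adjusted p under 0.05 over all genes), 8 higher and 9 lower under chow. That is read against 32.9% of all genes called in either direction, 14.2% higher and 18.8% lower. Among the 11 uncompressed collagens 3 were called, Col11a2, Col25a1 and Col5a3, all lower under chow (0 higher, also at an unadjusted p under 0.05), while 49.3% of the 2414 uncompressed genes were called, 40.2% lower and 9.03% higher. The share of uncompressed collagens called lower was thus not above the share among all such genes. In 12 of the 41 collagens the chow and powder values were fully apart, against 29.2% of all genes, and for 3 of the 11, against 46.2% of uncompressed genes. Over probe sets, 24 of 58 were called, 12 higher and 12 lower, against 34.6% of all probe sets (17.9% and 16.7%), and the groups did not overlap for 18, against 29.9%. Of 14 uncompressed collagen probe sets 4 were called, all lower, and the same 4 did not overlap, against 54.9% called, 16.1% higher and 38.8% lower, and 50% without overlap among all uncompressed probe sets. The differences of the 11 were all negative, with a median of -0.21 on the log2 scale, against 1745 negative and a median of -0.12 for the 2414. The signs of Col1a2, Col3a1 and Col6a3 turned when powder 1 was left out, and that of Col4a1 turned under both ways of rescaling the arrays.

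**Figure D2:**
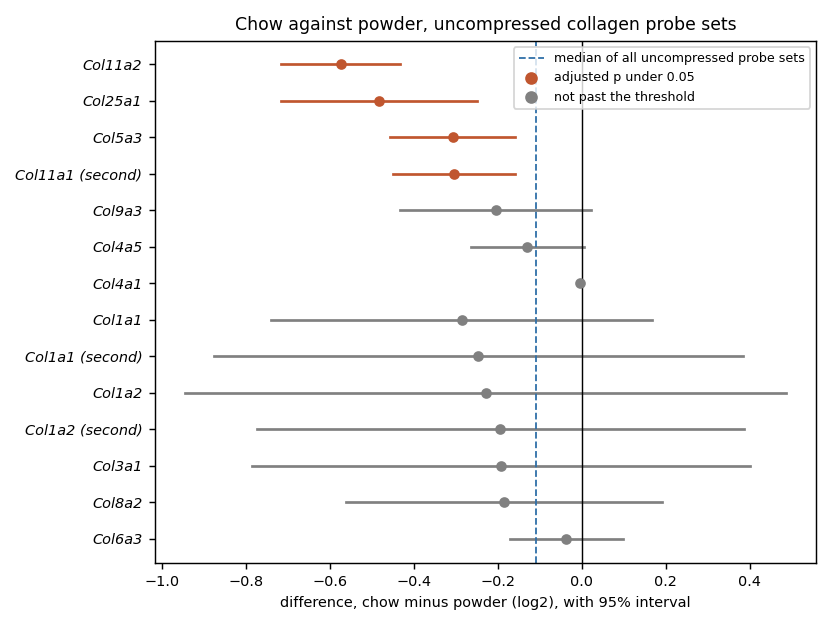
Differences of chow minus powder on the log2 scale with 95% intervals for the 14 uncompressed collagen probe sets, and the median over all uncompressed probe sets as a dashed line. Col11a2, Col25a1, Col5a3 and a second probe set of Col11a1 lie wholly below zero, and the intervals of the other 10 reach across it.

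The called uncompressed fibrillar chains belonged to the minor types V and XI, which co-assemble with larger fibres and help to set their width. For them and for a pair of collagens that followed single arrays, promoter windows from RefSeq (build GRCr8, 250 bases before to 50 after the annotated start) are printed so that their motifs can be set side by side. A window was listed for 32 of the 41 collagens. Capitals mark a CCAAT box, a TATA box with the letters TATAAA, or a GC box with the letters GGGCGG, on either strand, and neighbouring GC boxes can overlap. The windows lie at chr20:4817599-4817898, minus strand for Col11a2, chr8:27625899-27626198, minus strand for Col5a3, chr2:204508886-204509185, plus strand for Col11a1, chr4:33518307-33518606, plus strand for Col1a2 and chr5:143870519-143870818, plus strand for Col8a2.
Col11a2: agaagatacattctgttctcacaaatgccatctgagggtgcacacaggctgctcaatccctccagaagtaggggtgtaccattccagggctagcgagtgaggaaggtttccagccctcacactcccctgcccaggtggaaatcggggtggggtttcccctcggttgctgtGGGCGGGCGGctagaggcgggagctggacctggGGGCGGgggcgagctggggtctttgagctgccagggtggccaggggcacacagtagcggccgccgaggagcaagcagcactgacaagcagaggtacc
Col5a3: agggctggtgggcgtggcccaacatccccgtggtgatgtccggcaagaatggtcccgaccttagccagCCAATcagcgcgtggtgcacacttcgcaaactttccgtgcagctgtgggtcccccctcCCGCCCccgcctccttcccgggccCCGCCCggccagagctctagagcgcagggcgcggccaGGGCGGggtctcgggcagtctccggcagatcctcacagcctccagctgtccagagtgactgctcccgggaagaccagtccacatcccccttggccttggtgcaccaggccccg
Col11a1: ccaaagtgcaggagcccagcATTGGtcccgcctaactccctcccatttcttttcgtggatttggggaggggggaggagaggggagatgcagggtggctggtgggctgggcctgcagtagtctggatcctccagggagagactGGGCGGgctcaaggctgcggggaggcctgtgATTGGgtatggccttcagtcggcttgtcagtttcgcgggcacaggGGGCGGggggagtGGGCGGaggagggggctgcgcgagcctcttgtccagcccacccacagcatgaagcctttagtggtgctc
Col1a2: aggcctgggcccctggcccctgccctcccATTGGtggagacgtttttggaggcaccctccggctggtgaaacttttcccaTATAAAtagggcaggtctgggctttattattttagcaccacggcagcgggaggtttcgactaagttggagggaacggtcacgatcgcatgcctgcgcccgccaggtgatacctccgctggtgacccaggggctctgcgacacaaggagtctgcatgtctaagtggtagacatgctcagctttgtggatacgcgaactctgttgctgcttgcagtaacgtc
Col8a2: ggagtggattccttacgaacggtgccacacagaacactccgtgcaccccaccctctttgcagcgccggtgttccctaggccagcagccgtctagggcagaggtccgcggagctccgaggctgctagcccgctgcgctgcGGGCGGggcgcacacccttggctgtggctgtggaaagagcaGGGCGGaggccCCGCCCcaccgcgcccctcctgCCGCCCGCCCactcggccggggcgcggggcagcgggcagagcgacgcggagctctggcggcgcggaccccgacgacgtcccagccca
The type V and XI windows each held 3 GC boxes and 0 TATA boxes. The Col1a2 window held 0 GC boxes, 1 CCAAT box and 1 TATA box, the latter at position -170 from the annotated start. The Col8a2 window held 5 GC boxes and neither of the other motifs. Among all 33469 windows of this length, 33.1% held a GC box, 37.5% a CCAAT box and 14.2% a TATA box. Among the 32 collagen windows these shares were 56.2%, 28.1% and 12.5%. A match of letters is a description and does not show that a factor binds there.

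Col11a2, a chain of type XI collagen, was at 7.95, 8.17, 8.10 and 8.19 on the chow arrays and at 8.72, 8.73, 8.62, 8.56 and 8.74 on the powder arrays. The groups did not overlap, and the gap between the highest chow and the lowest powder value was 0.37. Its value was 1.49-fold lower under chow (log2 difference -0.57 ± 0.061 SE, adjusted p = 0.00217, limma), and the difference ran from -0.60 to -0.52 and stayed called without any 1 array. It was also the 1 uncompressed collagen still called when chow 2 and powder 1 were both left out (-0.59 ± 0.075, adjusted p = 0.0198). That fit called 13.9% of all genes, against 32.9% with all 9 arrays. Of uncompressed genes it called 24.3% lower, against 40.2%. These smaller shares apply wherever the joint removal of both arrays is cited below.

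Col5a3, a chain of type V collagen, was at 7.79, 7.71, 7.61 and 7.89 under chow and at 8.10, 8.14, 8.10, 7.998 and 7.95 under powder. The groups again did not overlap, though chow 4 and powder 5 lay only 0.062 apart. The difference was -0.31 ± 0.064 (adjusted p = 0.0123, limma), a 1.24-fold lower value under chow. It stayed called without any 1 array (adjusted p from 0.0115 to 0.0338). Without both chow 2 and powder 1, a fit with fewer calls among all genes, it was not called (-0.28, adjusted p = 0.0748).

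Col11a1, the partner chain of Col11a2 in type XI collagen, was represented by a compressed probe set that was not called. Another of its probe sets, named here after its values had been seen, was uncompressed, at 6.55, 6.25, 6.35 and 6.34 under chow and 6.66, 6.70, 6.76, 6.59 and 6.66 under powder. Chow 1 came closest to the powder arrays, and the groups did not overlap. The difference was -0.31 ± 0.062 (adjusted p = 0.0117, limma over all probe sets), and without both chow 2 and powder 1 it was -0.27 (adjusted p = 0.057). Another compressed probe set of Col11a1 was called higher, so its probe sets disagreed. The remaining type V and XI partners were compressed, Col5a1 being called higher, Col5a2 lower, and Col2a1, which joins type XI trimers in cartilage, not called.

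Col25a1, the neuronal transmembrane collagen, was at 9.47, 9.58, 9.75 and 9.94 on the chow arrays and at 10.27, 10.24, 10.14, 10.03 and 10.17 on the powder arrays. The chow values were more spread than the powder values (9.69 ± 0.208 and 10.17 ± 0.0939, mean ± SD, n = 4 and 5), and the groups did not overlap. The difference was -0.48 ± 0.10 (adjusted p = 0.0124, limma), 1.398-fold lower under chow. Chow 1, the array low in thalamic neuron markers, had the lowest Col25a1 value. Without it the difference was -0.41 ± 0.092 (adjusted p = 0.0253). Without chow 2 and powder 1 together it was -0.42 ± 0.12 and not called (adjusted p = 0.074). In bulk tissue, fewer cells of a type and less RNA per cell cannot be told apart, and this holds for every collagen here. The other membrane-spanning collagens were compressed: Col23a1 and Col17a1, the latter a part of skin hemidesmosomes, were called higher under chow, and Col13a1 was not called.

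**Figure D3:**
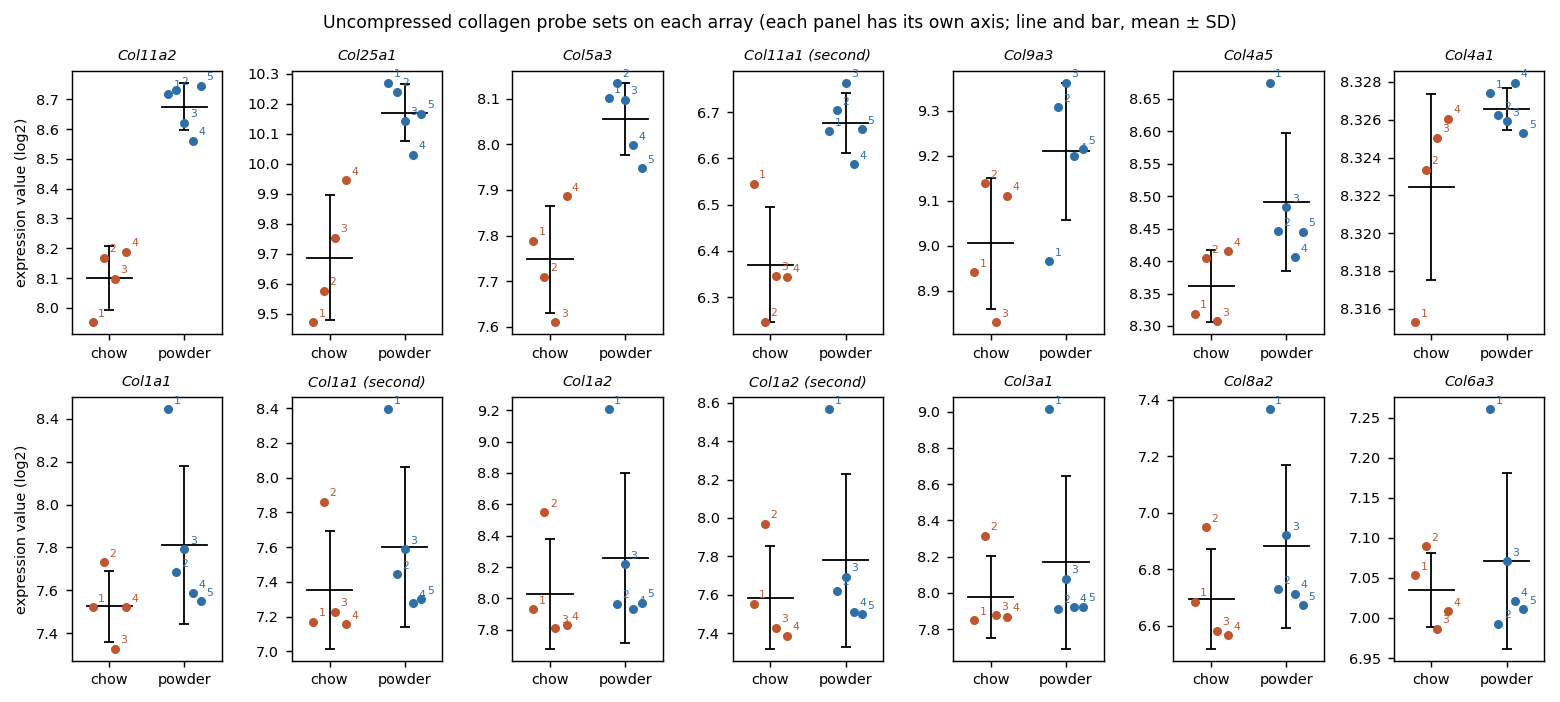
Log2 expression values of the 14 uncompressed collagen probe sets on each array, chow in orange and powder in blue, with array numbers beside the points and the mean ± SD in black (each panel has its own axis). In Col11a2, Col25a1, Col5a3 and the second Col11a1 probe set the groups do not overlap, while in the lower row powder 1 lies far above the other powder arrays.

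Col9a3, a FACIT chain that decorates type II fibres in cartilage, was at 8.94, 9.14, 8.83 and 9.11 under chow and at 8.97, 9.31, 9.36, 9.20 and 9.21 under powder. Powder 1 lay among the chow arrays and the other 4 powder arrays above all of them. The difference was -0.21 ± 0.097 (95% interval -0.43 to 0.02, adjusted p = 0.138, limma) and was not called. Leaving out chow 2 and powder 1 made it -0.31 ± 0.079, with an adjusted p of 0.0582. Its trimer partners Col9a1 and Col9a2 were compressed and not called.

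In type IV, the basement membrane collagen, the uncompressed chains were Col4a5 and, at the edge, Col4a1. Col4a5 was at 8.32, 8.404, 8.31 and 8.42 under chow and 8.67, 8.45, 8.48, 8.41 and 8.45 under powder. Powder 1 was its highest array and the groups overlapped between chow 4 and powder 4. The difference was -0.13 ± 0.058 (95% interval -0.26 to 0.01, adjusted p = 0.118, limma), and -0.10 ± 0.033 without chow 2 and powder 1 (adjusted p = 0.0987). Col4a1 moved by only -0.0041 ± 0.0022 (adjusted p = 0.171). The compressed chains of the same network were split, with Col4a2, which pairs with Col4a1 in vessel walls, called lower, Col4a6 called higher and Col4a4 not called. A second Col4a6 probe set was called in the opposite direction, lower.

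The interstitial collagens Col1a1, Col1a2 and Col3a1, the main fibre-forming chains of connective tissue, differed most between single arrays of the same diet. Col1a1 was at 7.52, 7.73, 7.33 and 7.52 under chow and at 8.45, 7.68, 7.79, 7.59 and 7.55 under powder. Powder 1 was 1.73-fold above the mean of the other powder arrays, and chow 2 was 1.21-fold above the mean of the other chow arrays. The difference between the diets was -0.29 ± 0.19 (95% interval -0.74 to 0.17, adjusted p = 0.279, limma) and was not called. It was -0.13 ± 0.096 without powder 1 (adjusted p = 0.347) and -0.20 ± 0.081 without both chow 2 and powder 1 (adjusted p = 0.148).

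Col1a2, which joins Col1a1 in type I trimers, was at 7.93, 8.55, 7.81 and 7.83 under chow and at 9.21, 7.97, 8.22, 7.93 and 7.97 under powder. Here powder 1 was 2.28-fold and chow 2 1.62-fold above the mean of the other arrays of the same diet. The difference was -0.23 ± 0.31 (95% interval -0.94 to 0.49, adjusted p = 0.58). It was 0.0084 without powder 1 and -0.17 ± 0.081 without both chow 2 and powder 1 (adjusted p = 0.198).

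Col3a1, the fibre chain of elastic tissues and vessel walls, was at 7.85, 8.31, 7.88 and 7.87 under chow and at 9.01, 7.91, 8.08, 7.92 and 7.92 under powder. The other chow arrays and 3 of the powder arrays lay between 7.85 and 7.92, with powder 3 at 8.08, chow 2 at 8.31 and powder 1 at 9.01. The difference was -0.19 ± 0.25 (95% interval -0.79 to 0.40, adjusted p = 0.575). Without both chow 2 and powder 1 the difference was -0.09 ± 0.046 (adjusted p = 0.199, limma). These arrays were its highest of each diet and were picked after the data were seen, so the smaller SE follows from that choice. The second probe sets of Col1a1 and Col1a2 showed the same arrays on top: powder 1 was 1.99-fold and 1.98-fold, and chow 2 1.60-fold and 1.43-fold, above the other arrays of their diet.

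Col8a2, a short-chain collagen of vessel walls and cornea, and Col6a3, a chain of the beaded filaments around cells, also had their highest chow value on chow 2 and their highest powder value on powder 1. Col8a2 was at 6.68, 6.95, 6.58 and 6.57 under chow and at 7.37, 6.73, 6.92, 6.71 and 6.67 under powder, a difference of -0.19 ± 0.16 (adjusted p = 0.394). Without powder 1 this was -0.06 ± 0.10 (adjusted p = 0.655), and without both chow 2 and powder 1 it was -0.15 ± 0.070 (adjusted p = 0.186). Col6a3 was at 7.05, 7.09, 6.99 and 7.01 under chow and at 7.26, 6.99, 7.07, 7.02 and 7.01 under powder, a difference of -0.04 ± 0.058 (adjusted p = 0.638). Of the 11 uncompressed collagens, 7 had their highest value of all arrays on powder 1, namely Col1a1, Col1a2, Col3a1, Col8a2, Col6a3, Col4a5 and Col25a1, against 13.8% of all 2414 uncompressed genes. Within the chow group, 6 of the 11 were highest on chow 2, against 20.1% of the 2414. The other 5 were highest on chow 4, against 18.6%, so chow 2 was not the only chow array on which collagens peaked.

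Most uncompressed fibroblast markers had their highest values on the same arrays as these collagens. Ogn, the matrix protein osteoglycin, was 2.71-fold higher on powder 1 than on the other powder arrays and 1.67-fold higher on chow 2 than on the other chow arrays. The growth factor Igf2 was 1.87-fold and 1.499-fold higher, the retinoic acid synthesis enzyme Aldh1a2 1.61-fold and 1.38-fold, and the collagen-binding proteoglycan Lum 1.44-fold and 1.22-fold. Apod was the 1 uncompressed marker of 10 that was not highest on powder 1, and Crabp2 the 1 whose highest chow value was not on chow 2 but on chow 1. The summed level of the 15 markers was 7719 to 8819 on the chow arrays, highest on chow 2, and 7916 to 9646 on the powder arrays, highest on powder 1. Of the 15 markers, 0 were called between the diets in either direction (limma), against 32.9% of all genes, and 0 passed an unadjusted p under 0.05. The choroid plexus markers also stood apart on powder 1: the summed level of the 2 uncompressed ones, Ttr and Otx2, was 709.6 there and 248 to 465 on the other powder arrays, but on the chow side it was highest on chow 3, at 878, with 461 on chow 2. The part of either cell type in the collagen values was not tested.

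**Figure D4:**
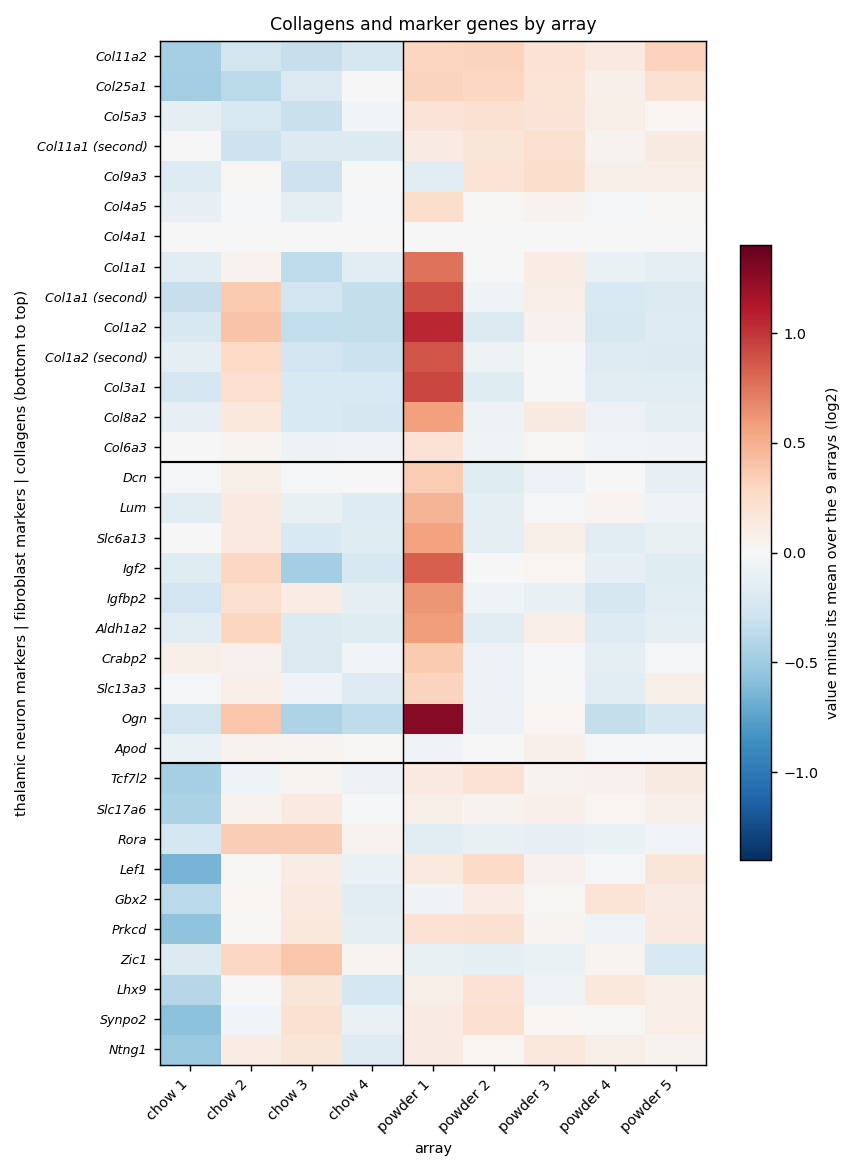
Each value minus its mean over the 9 arrays (log2, red above and blue below) for the uncompressed collagen probe sets, fibroblast markers and thalamic neuron markers, by array. Col1a1, Col1a2, Col3a1 and Col8a2 share their peak on powder 1 with 9 of 10 fibroblast markers, and 9 of 10 thalamic markers are lowest on chow 1. Col11a2 is low on every chow array, and Col25a1 on all but chow 4, where it is near its mean (-0.011).

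The 30 compressed collagens gave 8 higher and 6 lower calls, against 29.6% of all compressed genes called, 15.2% higher and 14.4% lower. The groups did not overlap for 9 of them, against 25.7%. Higher under chow were Col10a1, the network collagen of growth plate cartilage, Col22a1, a FACIT of tissue junctions, the beaded-filament chain Col6a5, Col26a1, and Col4a6, Col5a1, Col17a1 and Col23a1 as given above. Lower were the FACIT chains Col12a1 and Col16a1, the fibrillar Col24a1, the multiplexin Col15a1 of vessel basement membranes, and Col4a2 and Col5a2. Not called were Col6a1, Col6a2, Col6a6, Col7a1 of the skin's anchoring fibrils, Col8a1, Col9a1, Col9a2, Col11a1, Col13a1, Col14a1, Col18a1, Col19a1, Col20a1, Col27a1, Col2a1 and Col4a4. Probe sets of a gene again disagreed in places. Further compressed probe sets of Col6a2, Col14a1 and the uncompressed Col6a3 were called higher. Those of Col12a1, Col5a1 and Col15a1 were not called. Called differences of these 30 genes were 0.00014 to 0.00053 in size. Both ways of rescaling the arrays turned the balance of all 41 collagens towards higher calls. Quantile normalization gave 18 higher and 3 lower, and subtraction of array medians 30 and 3. The same turn was seen over all 14217 genes, with 8329 higher and 1000 lower after the first and 12112 and 1133 after the second. Under both, the 3 lower calls were Col11a2, Col25a1 and Col5a3. After quantile normalization Col4a1, at 0.014, was among the higher ones.

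The genes that make, cut, bind and accompany collagen are given by list, against the same background of 32.9% of all genes and 49.3% of uncompressed genes called. Of 25 measured genes of collagen processing, which hydroxylate, fold, trim and crosslink the chains, 1 was higher and 4 lower under chow, all compressed. The 4 uncompressed ones, P3h3, Ppib, Bmp1 and the crosslinking enzyme Lox, were not called, at -0.26, 0.22, -0.03 and -0.12 (limma, 1 at an unadjusted p under 0.05). Single arrays weighed on them: Lox was 6.82 on chow 1 and 7.78 to 7.87 on the other chow arrays, and its difference turned to 0.13 ± 0.098 without chow 1 (adjusted p = 0.331). Ppib was 9.68 on powder 1 and 10.26 to 10.30 on the other powder arrays, and without powder 1 its difference was 0.10 ± 0.028 and called (adjusted p = 0.042). P3h3 was called without chow 4 (-0.34 ± 0.094, adjusted p = 0.0418). Of 18 genes of collagen degradation, 4 were higher and 1 lower. The lower one was Reck, a membrane-anchored inhibitor of matrix metalloproteinases and the 1 called among 5 uncompressed members, at 7.95, 7.96, 7.87 and 8.01 under chow and 8.13, 8.12, 8.19, 8.22 and 8.07 under powder. Its groups did not overlap, and the difference was -0.20 ± 0.037 (adjusted p = 0.0097, limma), with an adjusted p of 0.052 without both chow 2 and powder 1.

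Of 7 measured collagen receptors, 0 were higher (limma, 1 at an unadjusted p under 0.05) and 2 lower. Itgb1, the beta chain shared by the collagen-binding integrins, was at 9.06, 9.08, 9.09 and 9.12 under chow and at 9.38, 9.31, 9.28, 9.26 and 9.35 under powder. The groups stood clear of each other, with a difference of -0.23 ± 0.026 (adjusted p = 0.00253, limma), and the call held without any 1 array. Its size fell to -0.11 with the median over its probe sets.

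Of 29 partner proteins of the matrix, 2 were higher and 8 lower, and of the 9 uncompressed ones 1 was higher and 5 lower. Of all uncompressed genes 9.03% were called higher and 40.2% lower. All 5 lower ones are components of basement membranes, a trait read from the called genes themselves. The uncompressed members Fn1, Tnc and Fmod were not called (-0.23, -0.10 and -0.02). Nor were the uncompressed basement membrane collagens Col4a5 and Col4a1. Among the compressed basement membrane genes of the list, Lama4 and Lama5 were called lower. Lama1, Lama2, Lama3, Lamb3, Lamc3, Nid2 and Hspg2 were not called. Lamb2, a laminin beta chain of vessels and synapses, was at 7.62, 7.59, 7.48 and 7.66 under chow and at 7.98, 7.97, 7.91, 7.77 and 7.90 under powder, a difference of -0.32 ± 0.053 (adjusted p = 0.00662, limma). Agrn, the heparan sulfate proteoglycan agrin, differed by -0.30 ± 0.051 (adjusted p = 0.007), and Nid1, which links laminin to type IV collagen, by -0.29 ± 0.059 (adjusted p = 0.0115). None of these overlapped between the groups. The calls on Lamb2, Agrn and Nid1 held without any 1 array, and that on Nid1 was lost without both chow 2 and powder 1 (adjusted p = 0.0638). With the median over its probe sets Nid1 differed by -0.15.

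The laminin chains Lamb1 (-0.25 ± 0.071, adjusted p = 0.0343) and Lamc1 (-0.13 ± 0.040, adjusted p = 0.0453), named after their values had been seen, were each lost in most of the 9 fits that left out 1 array, Lamb1 in 7 and Lamc1 in 8, and Lamc1 was at -0.06 with the median over its probe sets. The higher gene was Sparc, a collagen-binding glycoprotein of glia and vessels, at 11.92, 11.84, 11.72 and 11.89 under chow and 11.58, 11.66, 11.68, 11.76 and 11.60 under powder. Its groups overlapped between chow 3 and powder 4, the difference was 0.19 ± 0.052 (adjusted p = 0.0318, limma), and the call was lost in 7 of the 9 fits without 1 array. With the median over its probe sets it was 0.05 (adjusted p = 0.38).

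**Figure D5:**
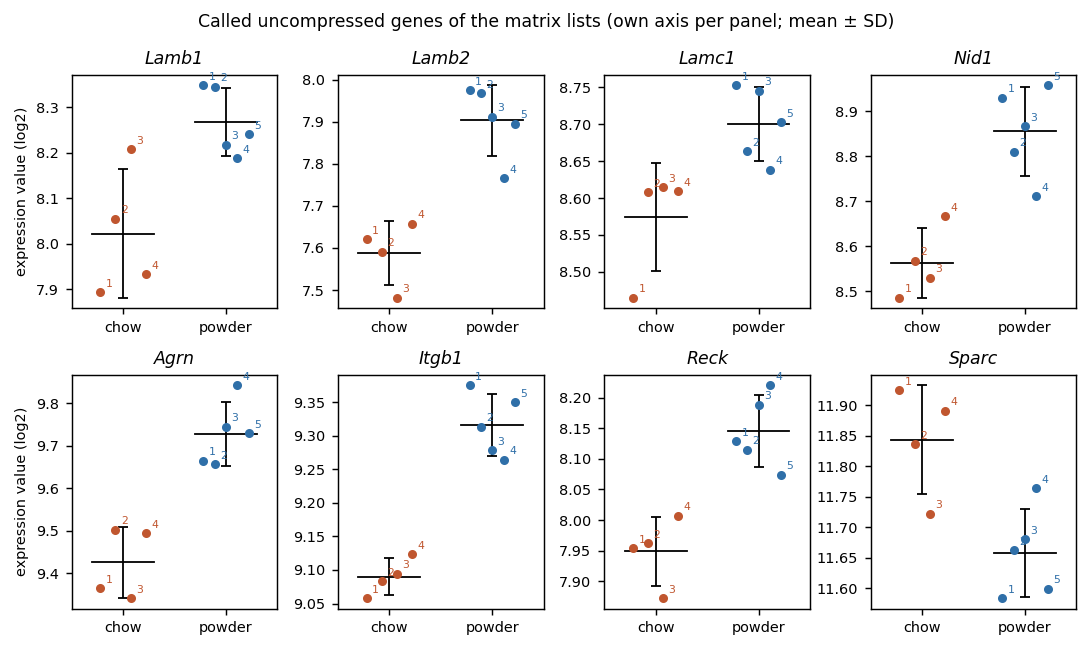
Log2 expression values on each array of the 8 called uncompressed genes of the matrix lists, chow in orange and powder in blue, with the mean ± SD in black (own axis per panel). Lamb2, Lamc1, Nid1, Agrn, Itgb1 and Reck have every chow value below every powder value, Lamb1 overlaps between the groups, and Sparc runs the other way with an overlap.

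Vessel cells carry much of this basement membrane, so their markers are given beside these genes. Of 12 endothelial markers 0 were higher and 4 lower (limma), against 32.9% of all genes called. At an unadjusted p under 0.05 (limma) 1 was higher and 8 lower, a threshold at which the share of all genes was not counted. Of the 4 uncompressed ones 2 were lower, against 40.2% of uncompressed genes. These were the receptor Flt1 at -0.41 ± 0.12 (adjusted p = 0.0363, limma) and the transporter Slco1a4 at -0.15 ± 0.036 (adjusted p = 0.0201). Flt1 was lost in 6 of the 9 fits without 1 array and Slco1a4 without chow 1 (adjusted p = 0.050026). With the median over their probe sets Slco1a4 was at -0.07 and Flt1 at 0.00021. The summed endothelial level was 4559 to 4775 on the chow arrays and 4768 to 4904 on the powder arrays. Of 12 pericyte and smooth muscle markers 4 were higher and 1 lower, against 14.2% and 18.8% of all genes. The 4 higher ones were all compressed, and the lower one was the channel subunit Abcc9 (-0.28 ± 0.086, adjusted p = 0.0407). The Abcc9 call was lost in 7 of the 9 fits without 1 array, and its difference was -0.00019 with the median over its probe sets (adjusted p = 0.0978). Rgs5, an uncompressed pericyte marker named after its values had been seen, was at 0.22 ± 0.076 and not called (adjusted p = 0.0616), but called without chow 4 (0.28, adjusted p = 0.0268). For the 12 markers, the summed level was 2382 to 2527 under chow and 2431 to 2479 under powder. The part of vessel cells in the matrix values was not tested.

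Markers of other cells were counted in the same way, against the same 32.9% of all genes called. Of 8 choroid plexus markers 1 was higher and 0 lower, of 9 astrocyte markers 1 and 0, of 11 microglia and macrophage markers 1 and 0, and of 9 oligodendrocyte lineage markers 0 and 1, the last being the myelin gene Mobp (-0.13 ± 0.041, adjusted p = 0.0439, limma). The higher ones were all compressed. The Mobp call was lost in 7 of the 9 fits without 1 array, and its sign turned with the median over its probe sets. At an unadjusted p under 0.05 the counts of 0 stayed at 0, except for 1 lower astrocyte marker. Of the 11 thalamic neuron markers 0 were called (limma, 1 lower at an unadjusted p under 0.05), with a median difference of -0.19. Without chow 1 that median was -0.07, and 2 of the 11 were called higher. Over all 14217 genes that fit called 1370 higher and 2197 lower.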

How the data were processed

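Thalamus RNA in 9 samples, 4 on chow and 5 on powder by the sample titles, was measured on single-colour arrays from 100 ng of total RNA, per the labels' protocols. The deposited table holds 1 log2 value per probe set and array. How the authors summarised and normalized it is not given in the sources used here, and the log2 scale was read from the values, 5.37 to 14.0. Array medians were 7.3907 to 7.3964 for chow and 7.3978 to 7.4019 for powder, an offset between the groups larger than any difference called in a compressed collagen. No further normalization was applied, and rescaled fits are alternatives. No scanner output or detection call was used, and no background level could be set.

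After removal of 57 control probe sets, 31042 remained. The platform annotation gave 20826 of them 1 gene symbol, 436 several and 9780 none, and those with several were left unnamed. Of 14217 genes 14204 matched the RefSeq table of GRCr8 and 0 symbols changed. Chow minus powder was fitted with limma 3.58.1 in R 4.3.3 (lmFit, eBayes, no covariates), over all genes and over all probe sets, with Benjamini-Hochberg adjustment and a threshold of 0.05, and the fit was tested on simulated data. Differences are ± SE. Every uncompressed collagen was named, with up to 4 called uncompressed genes of smallest p per pathway list and up to 3 per marker list; fibroblast markers were picked for naming with their values known. Members and lists were chosen with earlier results of these data known. The alternatives are given in the closing section, and leaving out chow 2 and powder 1 together was added after seeing the data.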

Additional observations from a re-analysis of the deposited data

Results flagged for a closer look

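Of 28 groups of arrays tested (14 uncompressed collagen probe sets in each diet), 9 held 1 array whose gap to its nearest neighbour exceeded Dixon's 95% limit, where chance gives about 1 in 20 groups. All 9 were highest values on powder 1 or chow 2. Powder 1 stood out for Col1a1 (8.45, nearest 7.79), the second Col1a1 probe set (8.395, nearest 7.59), Col1a2 (9.21, nearest 8.22), the second Col1a2 probe set (8.57, nearest 7.69), Col3a1 (9.01, nearest 8.08) and Col4a5 (8.67, nearest 8.48). Chow 2 stood out for the second Col1a1 probe set (7.86, nearest 7.23), Col1a2 (8.55, nearest 7.93) and Col3a1 (8.31, nearest 7.88). These probe sets are not independent of each other, since several belong to 1 gene and all come from the same arrays.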

How the results depend on the processing

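Col11a2, Col25a1 and Col5a3 stayed lower and called under every alternative run except the replicate block, and for Col25a1 and Col5a3 the joint removal of chow 2 and powder 1. Counts of calls moved far more, also over all 14217 genes. Those went from 2015 higher and 2669 lower as deposited to 8329 and 1000 after quantile normalization. With array medians subtracted they were 12112 and 1133. With compressed probe sets left out they were 528 and 1149 of 2906 genes. After quantile normalization the higher and lower calls were 18 and 3 for collagen genes, 22 and 4 for collagen probe sets (12 and 12 as deposited), 16 and 0 for processing, 7 (higher) for degradation, 3 and 1 for receptor and 12 and 5 for partner genes. With array medians subtracted they were 30 and 3, 44 and 4, 21 and 1, 14 (higher), 5 and 1, and 21 and 5. Col4a1 turned to 0.014 and 0.0024 under these. With compressed probe sets left out they were 0 and 4 for collagen genes (Col11a1 added) and for probe sets, 0 lower for processing, 1 higher for degradation, 1 lower for receptors and 1 and 5 for partners. With the dimmest probe sets left out (a fraction of 0.25), 1 degradation gene and 7 collagen probe sets were higher. Over all 11901 genes of that fit 1509 were higher and 2673 lower. With the median over probe sets, 2 processing and 5 partner genes were lower, receptors gave 2 higher and 1 lower, and Flt1 turned to 0.00021 and Mobp to 0.11. Over all 14217 genes the median gave 2404 higher and 2021 lower. Without both chow 2 and powder 1 the calls were 2 and 1 for collagen genes, 3 and 3 for probe sets, 0 and 2 for processing, 2 and 0 for degradation and 3 lower for partners. Over all genes they were 668 and 1304 in that fit.

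Leaving out 1 array gave 3 to 6 higher and 5 to 8 lower collagen genes, 4 to 8 and 7 to 10 probe sets, 0 to 2 and 3 to 5 processing, 2 to 4 and 1 to 2 degradation, 0 and 1 to 2 receptor and 1 to 3 and 4 to 7 partner genes. Over all 14217 genes it gave 1352 to 1778 higher and 2015 to 2640 lower, against 2015 and 2669 with all arrays. The 5 lower collagen genes were without chow 1, and the lowest higher count of 3 was without chow 1, chow 2, powder 1, powder 3 or powder 5. Col1a2 ran from -0.40 to 0.0084, Col3a1 from -0.30 to 0.019 and Col6a3 from -0.056 to 0.011, the positive values all without powder 1.

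The title numbers were not taken as pairs. Over 2414 genes, deviations of same-numbered chow and powder arrays correlated at -0.32, 0.16, -0.38 and -0.01. Those of differently numbered arrays ran from -0.40 to 0.48, so this check cannot show whether the samples were paired. With the number as a replicate block, 0 collagen genes or probe sets and 0 processing, degradation, receptor or partner genes were called in either direction (limma), and 11 of all 14217 genes. At an unadjusted p under 0.05 there were 5 higher and 7 lower collagen genes, 8 and 11 probe sets, 1 and 3 processing, 4 and 2 degradation, 0 and 2 receptor and 1 and 6 partner genes. The share of all genes or probe sets at that unadjusted threshold was not counted, so these counts have no background to be read against. Col11a2 was then at -0.56 (adjusted p = 0.0618), Col25a1 at -0.48 (0.128) and Col5a3 at -0.33 (0.0934). Powder 5 has no chow partner and carries no weight in that fit, which also has fewer degrees of freedom. Signal over background was unknown, so no detection limit could be set.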
